A study of Mus musculus with 9 samples.

Results

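Cxcl14 is a secreted CXC chemokine. It was followed here in mouse liver through 1 probe, built on RIKEN clone 1110031L23, which is the only probe named for the gene among the 97836 probes of the array. Of the 5400 genes that could be given a name, 2707 were measured well enough to be tested, Cxcl14 among them. The gene was chosen by its levels in the same 9 liver pools, because every high fat diet pool lay above every control pool. That contrast is therefore given as a description with no test.

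Male C57BL/6J mice, an inbred strain, were sampled at 20 weeks of age in 3 groups of 3 pools, and each pool combined liver from 4 mice. In the metformin group the diet supplied 45% of calories from fat over 17 weeks, and metformin, a glucose-lowering drug, was gavaged daily at 3 mg/kg during the final 5 weeks. The high fat diet group ate the same diet for as long, with saline gavage during the final 5 weeks. Control mice ate chow for 17 weeks, and the labels record no gavage for them. Gavage therefore cannot be told apart from diet or drug in the contrasts with chow. A pool gives the average of its mice, so nothing can be said about single animals, and in whole liver a change in the number of expressing cells and a change in RNA per cell cannot be told apart.

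Chemokines are small secreted proteins that guide the movement of immune cells through receptors on those cells. CXCL14 is an old and highly conserved member of the family, made by many epithelia without an inflammatory stimulus, and it attracts monocytes, immature dendritic cells and natural killer cells. Its receptor is not settled, although binding to CXCR4 has been described. In mice, Cxcl14 has been linked to obesity-associated insulin resistance, and brown fat secretes it.

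The gene lies on mouse chromosome 13 on the minus strand. Its promoter is shown because it is the only sequence of the gene in the tables used here. It covers 250 bases before and 50 bases after an annotated start site at chr13:56296502-56296801 (RefSeq, GRCm38.p6), with matches to the GC box GGGCGG in capitals.
Cxcl14: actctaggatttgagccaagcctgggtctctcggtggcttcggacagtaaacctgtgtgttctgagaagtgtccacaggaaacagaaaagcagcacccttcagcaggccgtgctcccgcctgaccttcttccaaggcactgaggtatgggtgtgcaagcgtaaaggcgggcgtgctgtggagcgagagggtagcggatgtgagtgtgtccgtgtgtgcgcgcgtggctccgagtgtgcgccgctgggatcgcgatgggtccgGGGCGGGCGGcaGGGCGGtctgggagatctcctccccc
Both strands were searched. The GC box matched at 3 places, beginning 12, 16 and 24 bases past the start base, and the first pair overlaps. A GC box occurs in 35.7% of the 32851 promoters of this length. There was no match to the TATA box TATAAA (13.6% of promoters), the CCAAT box CCAAT (37.4%) or the E-box CACGTG (7.15%). The window has 62.7% G and C and 22 CpG dinucleotides, against medians of 52.7% and 7 over all promoters.

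Cxcl14 gave a dim signal. The probe has 2 spots on each array, and a spot's median brightness was 3.08 to 9.71 times its local background over the 18 spots. By the mark that the extraction software sets, all 6 spots of the metformin pools and all 6 of the high fat diet pools stood well above background, as did 5 of 6 control spots. The exception was a spot of control replicate 1.

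**Figure D1:**
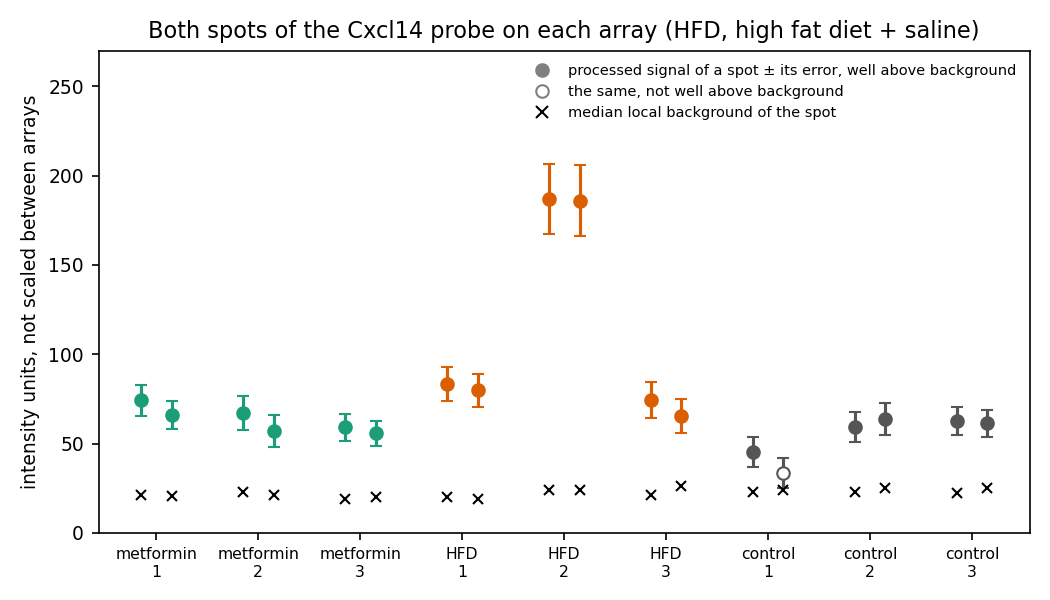
Processed signal of both spots of the Cxcl14 probe on each array, in intensity units before any scaling between arrays, with the extraction software's error per spot as bars and the local background of each spot as a cross; the open circle is the spot not well above background. Both spots of high fat diet replicate 2 stand at 187 and 186, and every other spot lies at 83.6 or below.

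Before scaling between arrays, the mean signal of both spots was 70.0, 62.0 and 57.4 intensity units in metformin replicates 1, 2 and 3. It was 81.8, 186 and 69.8 units in high fat diet replicates 1, 2 and 3, and 39.2, 61.5 and 62.0 units in control replicates 1, 2 and 3. A single pool, high fat diet replicate 2, stood far above the rest. On its first spot the signal was 187 ± 19.6 units (error given by the extraction software), 2.24 times the next highest array, and on its second spot 186 ± 19.9 units, 2.33 times the next highest. The spots lie at different places on the array, so the high reading was not that of a single spot.

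Relative levels are given below as log2 signal less the array's 75th percentile. On this scale Cxcl14 was at -1.62, -1.72 and -1.62 in metformin replicates 1, 2 and 3. It was at -1.41, -0.29 and -1.89 in high fat diet replicates 1, 2 and 3. It was at -2.64, -1.94 and -1.96 in control replicates 1, 2 and 3. The metformin pools lay close together and inside the range of the high fat diet pools, and the controls were the 3 lowest pools of the 9.

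**Figure D2:**
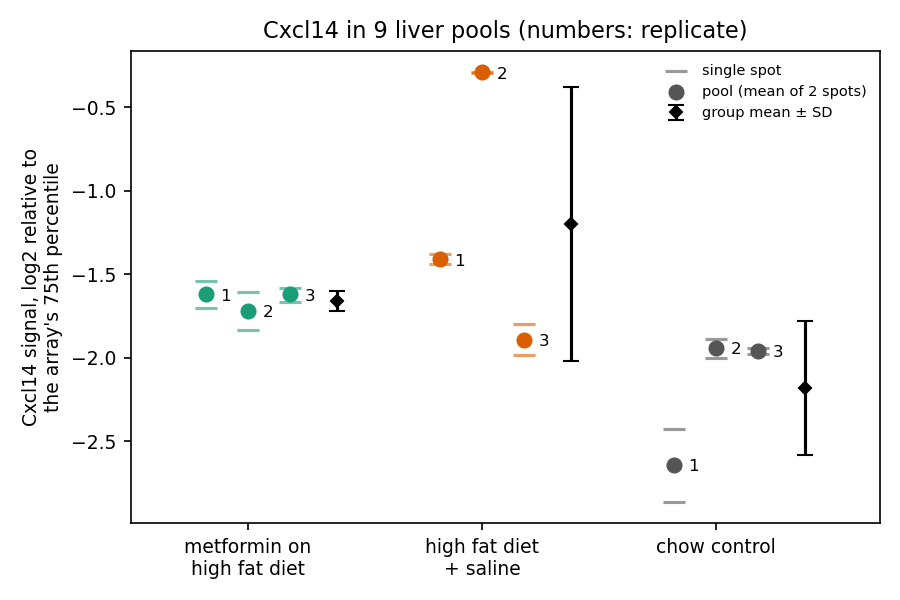
Cxcl14 level in each liver pool as log2 signal, with the 75th percentile of each array set to 0. Large points are pools, short bars are the 2 spots of each pool, numbers are replicates, and black diamonds with bars are group means ± SD (n = 3 pools). High fat diet replicate 2 is at -0.29 and the next highest pool at -1.41; high fat diet replicate 3 at -1.89 lies just above control replicate 2 at -1.94.

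As group means, Cxcl14 was at -1.66 ± 0.06 in the metformin pools, -1.20 ± 0.82 in the high fat diet pools and -2.18 ± 0.40 in the controls (SD, n = 3 each). The spread between pools therefore differed widely among the groups. The range was 0.10 among the metformin pools, 1.60 among the high fat diet pools and 0.70 among the controls. The pooled SD within groups was 0.53 for Cxcl14, against a median of 0.24 over all tested probes.

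Ordered from the top, high fat diet replicate 2 was followed by high fat diet replicate 1 after a gap of 1.12. Metformin replicates 1, 3 and 2 came next, then high fat diet replicate 3 and then the controls. The step of 0.05 between high fat diet replicate 3 and control replicate 2 was what kept the high fat diet pools and the controls apart. It was smaller than the median difference of 0.11 between both spots of an array, so those neighbours did not differ beyond the measurement's own spread. Control replicate 1 lay 0.68 below the next control, and its spots differed by 0.44 from each other, the largest such difference among the 9 arrays.

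The diet contrast asks what 17 weeks of high fat feeding, here with saline gavage, does to the liver relative to chow. Cxcl14 was 0.99 higher (SE 0.36, limma) in the high fat diet pools than in the controls, a 1.98-fold difference. All 3 high fat diet pools lay above all 3 controls, which held in this direction for 7.27% of tested probes and is the pattern that led to the choice of the gene. Limma called 28 probes in this contrast at an adjusted p under 0.05, or 0.0451%. The Cxcl14 difference exceeded that of all but 0.582% of the 62036 tested probes, whose median was -0.01. Because the gene was chosen on this same contrast, a high rank was favoured in advance and is no support for a diet effect.

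The size of the diet difference rested on 1 pool. Without high fat diet replicate 2, Cxcl14 was 0.53 higher (SE 0.25) in the remaining high fat diet pools than in the controls, and without high fat diet replicate 3 it was 1.33 higher (SE 0.33). Without control replicate 1 the difference was 0.76 (SE 0.39). The spots gave like values when taken singly, 0.97 on the first and 1.00 on the second.

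**Figure D3:**
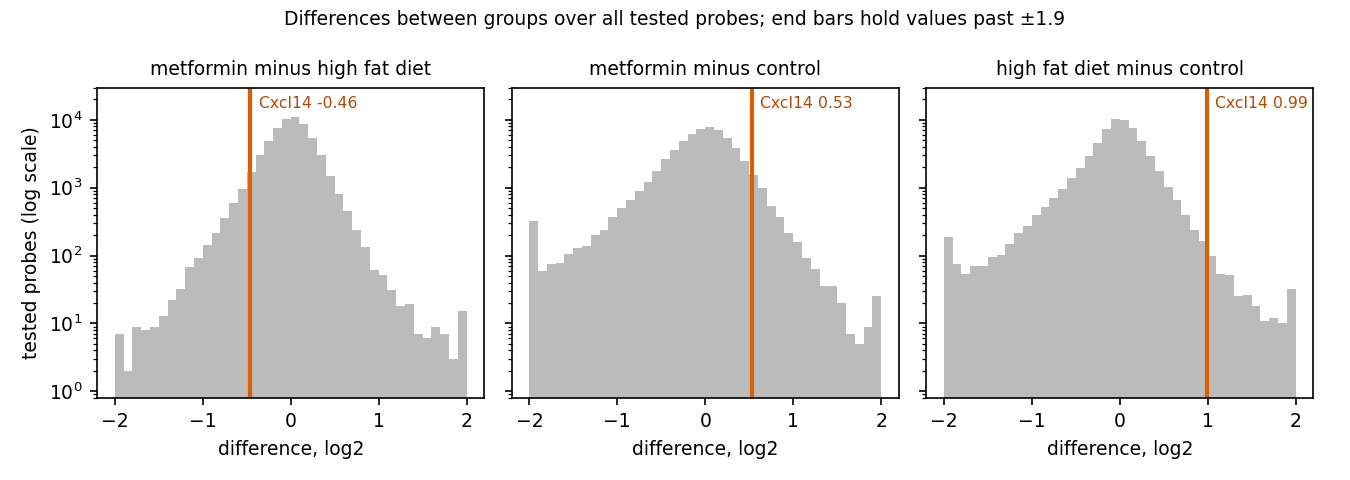
Differences between group means over the 62036 tested probes in 3 contrasts (x axis, log2; y axis, number of probes on a log scale), with Cxcl14 marked by a line and values past ±1.9 held in the end bars. Cxcl14 lies at -0.46 for metformin minus high fat diet (5.03% of probes lower) and at 0.53 for metformin minus control (5.77% higher). It lies at 0.99 for high fat diet minus control (0.582% higher), the contrast on which the gene was chosen. That choice favours these sides in all 3 contrasts.

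The drug contrast asks how liver RNA differs with metformin when the fat-rich diet goes on. Cxcl14 was at -1.66 ± 0.06 in the metformin pools against -1.20 ± 0.82 in the high fat diet pools (SD, n = 3 each), a difference of -0.46 (SE 0.36, 95% confidence interval -1.26 to 0.34). The groups overlapped, since high fat diet replicate 3 lay below all 3 metformin pools. The difference did not pass (limma adjusted p = 0.864 over all tested probes; exact two-sided permutation p = 0.5, where 3 pools against 3 cannot go below 0.1). Limma called 4 probes in this contrast, or 0.00645%. The high fat diet pools are also those on which the gene was chosen. The interval runs from a fold of 0.418 to one of 1.27, so these pools could not tell a level below that on saline from one at or somewhat above it.

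This difference too rested on high fat diet replicate 2. Without that pool the metformin minus high fat diet difference was -0.01 (SE 0.25), and without high fat diet replicate 3 it was -0.81 (SE 0.33, limma adjusted p = 0.706).

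The third contrast takes diet, drug and gavage together against chow, and shares the controls with the diet contrast, on which the gene was chosen. Cxcl14 was at -1.66 ± 0.06 in the metformin pools against -2.18 ± 0.40 in the controls (SD, n = 3 each). The difference was 0.53 (SE 0.36, 95% confidence interval -0.27 to 1.32), or 1.44-fold, and did not pass (limma adjusted p = 0.456; exact two-sided permutation p = 0.1, the smallest that 3 pools against 3 can give). That SE takes its spread from all groups, including the widely spread high fat diet pools. With only the metformin and control pools fitted, the SE was 0.21 and the interval 0.03 to 1.02. The difference did not pass there either (limma adjusted p = 0.249). The metformin pools all lay above the controls, as they did for 12.5% of tested probes in this contrast, in which limma called 339 probes, or 0.546%.

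The separation of metformin from control pools was absent without scaling between arrays. It held with quantile normalization (lowest metformin pool -1.69, highest control -1.92) and with each array centred on its median (0.67 against 0.39). It also held with normexp background correction (-1.05 against -1.24). Before scaling, metformin replicate 3 had 57.4 units, below control replicates 2 and 3 at 61.5 and 62.0 units, and the difference was 0.25 (SE 0.34). The 75th percentile of the array with metformin replicate 3 was 177 units, and on the other arrays it was 204 to 258 units. Without control replicate 1 the metformin minus control difference was 0.30 (SE 0.39).

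The arrays were spread over 3 slides. Slide 1 held high fat diet replicate 1 and the controls, slide 2 held metformin replicates 1 and 2 and high fat diet replicates 2 and 3, and slide 3 held metformin replicate 3. Slide and scan split the arrays in the same way. On slide 1, high fat diet replicate 1 was at -1.41 against a control mean of -2.18, a difference of 0.77. On slide 2, the metformin pools averaged -1.67 against -1.09 in the high fat diet pools, a difference of -0.58. With slide as a block the differences were -0.58 (SE 0.48) for metformin minus high fat diet, 0.19 (SE 0.74) for metformin minus control and 0.77 (SE 0.56) for high fat diet minus control. The values of -0.58 and 0.77 repeat the differences within slides, and 0.77 rests on 1 high fat diet pool. Metformin replicate 3, alone on its slide, adds nothing to this fit. No slide held metformin pools beside controls. Background correction of the median signal by normexp gave smaller differences of -0.25 (SE 0.20) for metformin minus high fat diet, 0.32 (SE 0.20) for metformin minus control and 0.57 (SE 0.20) for high fat diet minus control. Normexp was run with an offset of 50 units, which by itself makes the log2 differences and SE of a dim probe smaller. How much of the change came from the offset was not tested.

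**Figure D4:**
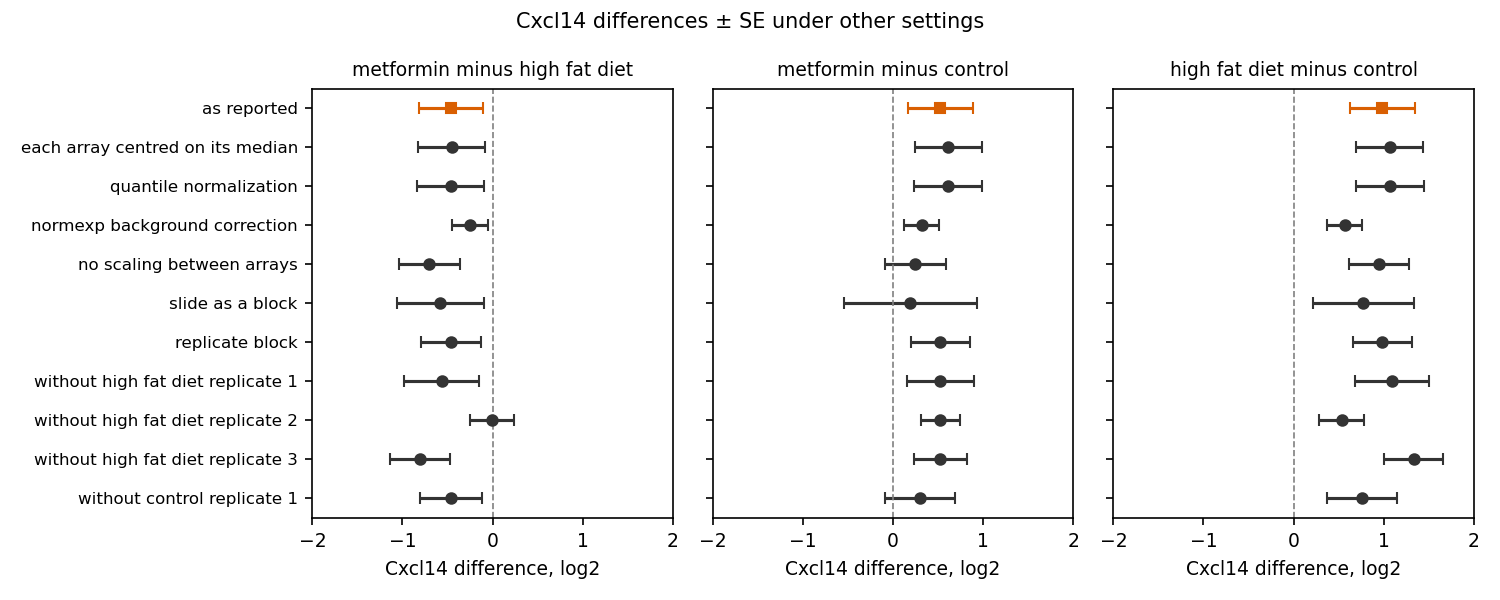
Cxcl14 differences ± SE on the log2 scale under 11 of the settings used, for the 3 contrasts; the square is the value as reported. High fat diet minus control is 0.53 without high fat diet replicate 2 and 1.33 without high fat diet replicate 3, and metformin minus high fat diet is -0.01 without high fat diet replicate 2.

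High fat diet replicate 2 was not an unusual array in its overall signal. Its 75th percentile of 228 units, its local background of 24 units and its 56.0% of spots well above background lay within the ranges of 177 to 258 units, 20 to 24.5 units and 53.0% to 63.5% over all 9 arrays. On that array 56 of the 62036 tested probes (0.0903%) were at least as far above the next highest array as Cxcl14 was. The same count was 6 to 72 on the other arrays except control replicate 1, where it was 643. Among the 56 were Gm30308 and Gm39350, predicted noncoding RNAs and the only named genes there beside Cxcl14, which stood 3.10 and 2.65 above the next highest array. They were singled out after their values were seen.

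Named genes were then ranked by how similar their level was to that of Cxcl14 over the 9 pools, using Pearson's r as a measure of likeness and no test. The 9 points share pools, slides and high fat diet replicate 2. The 5 most similar of 2706 genes had r of 0.907 to 0.959 (median over all named genes -0.069), and all 5 were noncoding RNAs with their highest level in high fat diet replicate 2. Only 470 of the 2707 named genes tested, Cxcl14 included, were protein-coding, so mostly noncoding genes could be ranked. Among 59193 tested probes without a name, 2 were more similar than any named gene, the higher at 0.966.

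Gm35679, a predicted noncoding RNA that was above background on all 9 arrays, had a swing of about the same size as Cxcl14 (r = 0.913). It was at -0.24, 0.50 and -0.18 in metformin replicates 1 to 3, at 0.32, 1.20 and -0.22 in high fat diet replicates 1 to 3, and at -0.94, -0.47 and -0.58 in control replicates 1 to 3. As for Cxcl14, high fat diet replicate 2 was the highest pool and control replicate 1 the lowest. Its high fat diet minus control difference was 1.1 (SE 0.34), and a second probe for the gene gave 0.92 there with r = 0.726.

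Gm36788 was the most similar gene (r = 0.959; 0.893 without high fat diet replicate 2), but it was above background on only 3 of 9 arrays. The noncoding 1700019L22Rik (r = 0.917) was above background on 8 arrays, with -1.45 in high fat diet replicate 2. Gm39137 (r = 0.910, and 0.737 without high fat diet replicate 2) was also highest in that pool, with a much smaller swing. It was at -1.03 ± 0.01 in the metformin pools, -1.0 ± 0.15 in the high fat diet pools and -1.17 ± 0.05 in the controls (SD, n = 3 each). Unlike Cxcl14, its lowest pool was control replicate 2. D330050I16Rik (r = 0.907) kept its likeness without high fat diet replicate 2, with r = 0.937 over the other 8 pools.

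**Figure D5:**
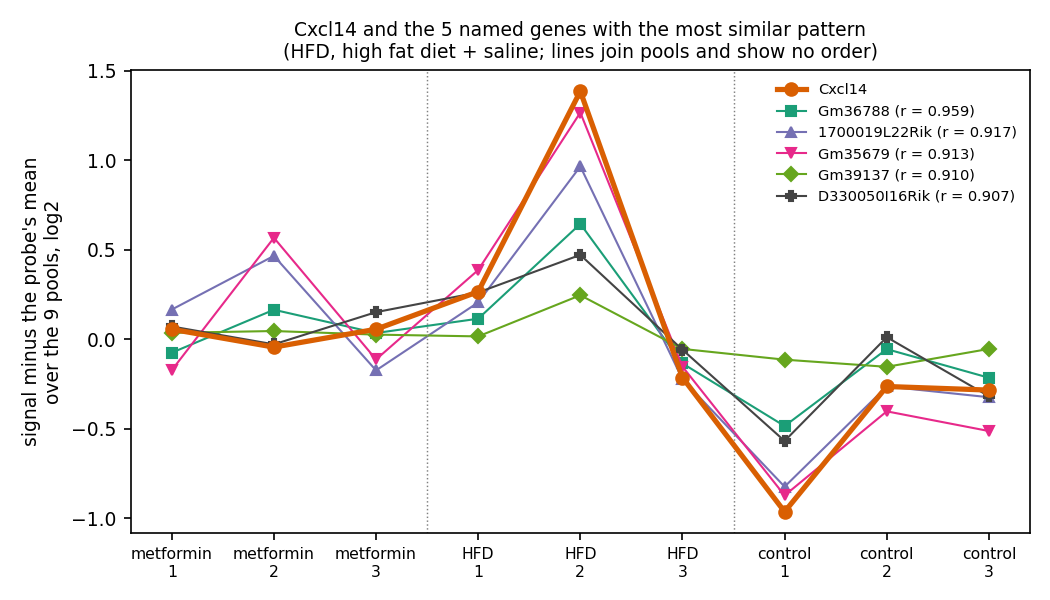
Level of Cxcl14 and of the 5 named genes most similar to it in each of the 9 pools, as log2 signal less the probe's mean over the 9 pools; lines join pools for legibility only. All 6 genes are highest in high fat diet replicate 2, and Cxcl14 and Gm35679 have the largest swings.

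The opposite pattern was led by Gm35829 (r = -0.861), Gm29993 (r = -0.855), Gm36460 (r = -0.855) and Gm41863 (r = -0.847), all predicted noncoding RNAs, and by Nop53 (r = -0.852), which encodes a nucleolar protein of ribosome assembly. The Nop53 probe, also from a RIKEN clone, was at -0.83, -0.89 and -0.97 in metformin replicates 1 to 3. It was at -1.17, -1.78 and -0.74 in high fat diet replicates 1 to 3, and at -0.87, -0.98 and -0.99 in control replicates 1 to 3. High fat diet replicate 2 was its lowest pool. Without that pool its r with Cxcl14 was -0.400.

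When each pool was taken as its deviation from its group mean, so that differences between groups played no part, the most similar genes were 1700054K19Rik (r = 0.960), E130307A14Rik (0.949), Gm42012 (0.945), Cfap77 (0.939) and Gm36788 (0.935). Only Gm36788 was in both sets of 5. Without high fat diet replicate 2, r over the other 8 pools was 0.262 for 1700054K19Rik, 0.401 for E130307A14Rik and 0.454 for Cfap77, against 0.859 for Gm42012 and 0.893 for Gm36788. Cfap77, a gene for a protein of the ciliary axoneme, was above background on 5 of 9 arrays. A second probe for E130307A14Rik had r = -0.390 with Cxcl14 over the 9 pools, so the likeness of that gene depended on the probe.

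Few genes near Cxcl14 could be read. The reference table places 33 other genes within 500 kb, among them the proneural factor gene Neurog1 and the liver chemotactic factor gene Lect2, and 2 of the 33 had a tested probe with a name. Gm31657, a predicted noncoding RNA, was at -1.94, -2.48 and -2.37 in metformin replicates 1 to 3, at -1.57, -1.99 and -1.93 in high fat diet replicates 1 to 3, and at -2.39, -2.47 and -2.36 in control replicates 1 to 3. Its high fat diet pools lay above its controls, as they did for 7.27% of tested probes. The difference of 0.58 (SE 0.18) did not pass (limma adjusted p = 0.248). Unlike Cxcl14, its highest pool was high fat diet replicate 1. Gm33019 was at 1.18 ± 0.39 in the metformin pools, 0.68 ± 0.30 in the high fat diet pools and 0.91 ± 0.14 in the controls (SD, n = 3 each), and its differences did not pass in any contrast (limma adjusted p = 0.534 to 0.776).

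The setting of a chemokine in the liver could be described only in small part. None of 35 other chemokine ligands and none of 22 chemokine receptors had a probe with a name, so Cxcl14 was the only member of its family that could be followed. Over 15 lists of pathway and cell type genes, 6 of 193 genes were tested. At an adjusted p under 0.05, limma called 0 of the 6 in each of the 3 contrasts. Of tested probes it called 0.00645% for metformin minus high fat diet, 0.546% for metformin minus control and 0.0451% for high fat diet minus control. With shares so low, 0 of 6 says nothing about the lists. Limma gave an unadjusted p under 0.05 to 2 of the 6 for metformin minus high fat diet (6.64% of all tested probes). It did so for 3 of the 6 for metformin minus control (19.1%) and 0 for high fat diet minus control (12.1%). Here too, 6 genes are too few to set against the shares.

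Mx2, an interferon-induced gene annotated as a transcribed pseudogene, was at -1.94 ± 0.28 in the metformin pools, -1.91 ± 0.20 in the high fat diet pools and -2.10 ± 0.10 in the controls (SD, n = 3 each). Its highest pool was metformin replicate 2 at -1.65. Igf1, a growth factor gene induced by growth hormone in hepatocytes, was at 2.46 ± 0.53 in the metformin pools, 2.92 ± 0.31 in the high fat diet pools and 3.09 ± 0.16 in the controls (SD, n = 3 each). Fads2, a desaturase of polyunsaturated fatty acid synthesis, differed by -0.03 (SE 0.17) between high fat diet and control, with limma adjusted p = 0.979.

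Markers of cell types that could hold the transcript were nearly absent from the named probes. Among the markers of macrophages, lymphocytes, neutrophils, stellate cells, endothelial cells, cholangiocytes and adipocytes, 0 had a tested named probe, so how these cells moved with Cxcl14 was not tested. Of the hepatocyte markers only Hnf4aos, the antisense transcript of the hepatocyte factor gene Hnf4a, was tested, and a single transcript cannot check the liver label. Hnf4aos was above background on all 9 arrays, as was a second probe for it. It was at 2.11 ± 0.05 in the metformin pools, 1.91 ± 0.32 in the high fat diet pools and 2.27 ± 0.15 in the controls (SD, n = 3 each). Protein-coding hepatocyte markers such as Alb had no named probe. The muscle marker Mir1a-1hg was above background on 4 of 9 arrays. It was at -3.87, -3.79 and -4.50 in metformin replicates 1 to 3, at -3.03, -3.12 and -2.46 in high fat diet replicates 1 to 3, and at -3.84, -3.38 and -3.12 in control replicates 1 to 3. High fat diet replicate 2 was the lowest of its group for this marker, and limma called it in none of the 3 contrasts.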

How the data were processed

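Liver RNA of 9 pools was measured on 1-colour Agilent arrays (Cy3). The deposited scanner files hold the intensity of each spot, which the authors extracted and background-subtracted with Agilent Feature Extraction 11.5.1.1 per the file headers (10.7 per the submitters' processing notes). The deposited table of the series holds log2 values, which were within 0.01 of the log2 intensity less 1 constant per array. The number of arrays limits the precision, since arrays give no counts.

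Spots with an outlier mark were left out (73 to 192 of 175906 per array). For each probe the mean log2 processed signal of its spots was taken, less the 75th percentile of that array. A probe was tested if at least 0.5 of its spots were above background on at least 3 arrays and it had a value on all 9, which left 62036 probes. Groups were compared with limma 3.58.1 (R 4.3.3) over all 9 arrays, with Benjamini-Hochberg adjustment over the tested probes at 0.05. The fit was tested on simulated data. The limma p-values judge a difference between group means against the spread between pools within the groups.

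Names came from RefSeq accessions (4656 probes), RIKEN clones (1209) or the identifier (8), matched to the GRCm38.p6 gene table. The files' header names mm9, and the table's positions are used only to find neighbouring genes, beside the promoter's own. The clone probe may read a transcript of the locus other than the main mRNA, and its sequence and strand are not given in the sources used here. Probes of Agilent's catalogue (39027) and of NONCODE (28773) have no gene names in the sources used here, so other probes for Cxcl14 may exist among them. For a gene with several tested probes the brightest was used.

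Cxcl14 and the gene lists were chosen with earlier results of these data known. The genes named are the 5 most similar, the 5 most opposite, the 5 most similar by deviations from group means, tested neighbours within 500 kb and tested list members, of which 1 is not reported here.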

Additional observations from a re-analysis of the deposited data

How the results depend on the processing

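All 19 alternatives kept the sign of the Cxcl14 differences, which the choice of the gene favours in each contrast. In both metformin contrasts Cxcl14 was called under none of them (limma adjusted p = 0.363 to 1 against high fat diet and 0.249 to 1 against control). Metformin minus high fat diet ran from -0.81 to -0.01 (SE 0.25 without high fat diet replicate 2, no clear sign). Metformin minus control ran from 0.19 to 0.65 and high fat diet minus control from 0.53 to 1.33. Leaving out 1 array gave the same limits, except for metformin minus control (0.30 to 0.65). The replicate block, like the filters, could not move a difference (-0.46, 0.53 and 0.99). Deviations of same-numbered pools correlated between -0.094 and 0.128, which gave no sign that replicate numbers paired the pools but cannot exclude it. Normexp on the median signal, added because the planned version needs a mean signal that was not used here, and no scaling between arrays were chosen after seeing the data. Normexp (offset 50 units) gave -0.25, 0.32 and 0.57. Without scaling, the median of all probes was lower in the metformin pools by -0.23 (against high fat diet) and -0.28 (against control).

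The number of probes called by limma moved more. For metformin minus high fat diet (4 as reported, 3 higher) it was 2 with arrays centred on the median, 2 without a filter, 2 without scaling (1 higher), 7 with normexp (6 higher), 0 with only the groups compared, 0 with slide as a block and 0 with the replicate block, where 5884, 2621 and 4223 probes had an unadjusted p under 0.05, and 0 to 4 with 1 array left out (0 without control replicate 2, high fat diet replicate 1 or 2, or any metformin pool, with 2839 to 4004 at an unadjusted p under 0.05). For metformin minus control (339, 147 higher) it was 638 with probes above background on all 9 arrays, 96 without a filter (30 higher), 4563 without scaling (130 higher), 594 with normexp (293 lower), 602 with only the groups compared (143 higher), 79 with the replicate block and 0 with slide as a block (2644 at an unadjusted p under 0.05), and 2 to 2711 with 1 array left out (2 without metformin replicate 3, 2711 without control replicate 1); arrays centred on the median gave 379 (205 higher). For high fat diet minus control (28, 8 higher) it was 12 without a filter, 64 with normexp (27 higher), 22 with probes above background on all 9 arrays (10 higher), 2 with slide as a block, 0 with the replicate block (7932 at an unadjusted p under 0.05), and 0 to 296 with 1 array left out (296 without high fat diet replicate 1; 0 without high fat diet replicate 2 or 3, with 5721 and 6240 at an unadjusted p under 0.05). The causes were not tested.

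Cxcl14 was dim, and 1 of its 2 spots in control replicate 1 was not well above background.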
